A study of Mus musculus with 20 samples.

Results

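6 genes of the mouse retina are described here, Chrnb4, Il11ra1, Slitrk6, Atp13a5, Acbd7 and Arid3c, out of 1865 genes in the 2 tables of the series. They were chosen by symbol as genes highest in retina homozygous for CrxRip, so the levels in that genotype chose them, and every comparison with it is given as a description, with no test. 3 of the 6 are in both tables (Acbd7, Arid3c and Slitrk6), Il11ra1 is in the P2 table only, and Chrnb4 and Atp13a5 are in the P21 table only. The choice matched the values in 8 of the 9 gene-and-age pairs: Arid3c at P2 was highest in Nrl-/- and not in CrxRip/Rip.

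RNA of whole retina from C57BL/6J mice was sequenced at postnatal day 2 (P2) and postnatal day 21 (P21). The 5 genotypes at each age were wild type, CrxRip/+ with 1 copy of the dominant CrxRip allele of Crx, CrxRip/Rip with both copies of that allele, Crx-/- without Crx, and Nrl-/- without Nrl. The 20 samples formed 10 groups of 2, and a sample pooled 2 independent frozen retinas. Nothing in the labels says that the duplicates came from separate animals, so p-values measure the spread between these samples.

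Crx encodes a homeodomain protein that switches on photoreceptor genes by binding DNA with the core TAATCC, which its relative OTX2 also binds. Nrl encodes a leucine zipper protein needed for rods to form, without which the retina makes cone-like photoreceptors instead. The 6 genes have other roles. Chrnb4 encodes the beta 4 subunit of neuronal nicotinic acetylcholine receptors, ion channels that it builds together with alpha 3 and alpha 5 subunits. Il11ra1 encodes the chain of the interleukin 11 receptor that binds the cytokine, Slitrk6 a neuronal membrane protein with leucine-rich repeats that acts in neurite outgrowth and synapses, and Atp13a5 a P5-type transport ATPase. Acbd7 encodes a small protein with an acyl-CoA binding domain, and Arid3c a DNA-binding protein with an AT-rich interaction domain.

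Because the mutated or deleted factors act on promoters, the stretches before the starts of Slitrk6, Atp13a5, Acbd7 and Chrnb4 are shown. Each is 250 bases long, 5′ to 3′ on the gene's strand, from RefSeq on GRCm38.p6, with capitals at TAAT or its reverse complement ATTA, the core shared by many homeodomain sites. The windows are chr14:110755150-110755399 (minus strand) for Slitrk6, chr16:29378733-29378982 (minus) for Atp13a5, chr2:3335918-3336167 (plus) for Acbd7 and chr9:55048545-55048794 (minus) for Chrnb4.
Slitrk6: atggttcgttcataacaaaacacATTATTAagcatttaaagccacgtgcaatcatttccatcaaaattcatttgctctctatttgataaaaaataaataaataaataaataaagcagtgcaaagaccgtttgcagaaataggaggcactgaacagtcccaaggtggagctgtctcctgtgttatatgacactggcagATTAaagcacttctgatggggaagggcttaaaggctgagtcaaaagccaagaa
Atp13a5: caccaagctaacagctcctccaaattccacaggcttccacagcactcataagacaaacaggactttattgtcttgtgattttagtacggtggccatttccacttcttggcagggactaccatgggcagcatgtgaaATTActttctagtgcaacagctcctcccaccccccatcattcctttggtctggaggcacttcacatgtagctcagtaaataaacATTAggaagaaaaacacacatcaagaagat
Acbd7: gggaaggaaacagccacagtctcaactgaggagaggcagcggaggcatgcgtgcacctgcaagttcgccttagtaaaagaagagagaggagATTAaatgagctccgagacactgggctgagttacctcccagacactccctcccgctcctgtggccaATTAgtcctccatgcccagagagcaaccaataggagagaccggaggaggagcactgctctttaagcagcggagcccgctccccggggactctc
Chrnb4: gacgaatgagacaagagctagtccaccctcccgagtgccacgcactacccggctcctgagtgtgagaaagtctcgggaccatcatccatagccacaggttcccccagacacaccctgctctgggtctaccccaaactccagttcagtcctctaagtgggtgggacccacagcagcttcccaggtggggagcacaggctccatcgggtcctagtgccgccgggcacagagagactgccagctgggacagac

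All 6 genes had an entry in the RefSeq promoter table, 7 windows in all since Il11ra1 had 2 starts. The motifs TAATCC and TAATTA were searched on both strands of the whole window, 250 bases before to 50 after the start, where TAAT overlaps both of them. TAATCC was in 0 of the 7 windows and in 7.06% of all 32851 promoter windows. TAATTA was likewise in 0 of 7, against 5.29% of all windows. The bare core TAAT, added after the first search, was in 3 of 7 (Slitrk6, Atp13a5 and Acbd7), against 58% of all windows. The GC content of the 250 bases ran from 37.2% for Slitrk6 and 44.8% for Atp13a5 to 61.2% for Chrnb4 and 72% for Arid3c, beside a median of 52.4% over all windows, so base composition varied widely among them. These are matches of letters in a short window and do not locate a binding site.

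Values are FPKM, fragments per kilobase of transcript scaled to the mapped fragments of the library, rounded to 1 decimal, and the read depth behind them is unknown. A change is the difference of mean log2(FPKM + 1) between genotypes, a scale that makes folds at low FPKM look smaller. Called means an adjusted p under 0.05 by limma, adjusted over the whole table. Every gene of both tables (566 at P2, 1497 at P21) had passed the authors' own thresholds in these samples, so shares of called genes describe selected genes. Photoreceptor markers matched the labelled tissue, with summed FPKM of 9465.4 and 9883.5 over 11 of 12 listed markers in wild type at P21. At the same age the sum was 492.3 and 510.5 in CrxRip/Rip, the lowest of the 5 genotypes, and 949.5 to 5089.5 in the other mutants. At P2, over 7 of the 12, the sum was 111.9 and 135.2 in CrxRip/Rip, 59.9 and 60.1 in Nrl-/-, and 266.7 to 406.8 elsewhere. A bulk sample cannot tell fewer cells of a type from less RNA per cell. Amacrine and ganglion cell markers were in neither table and were not analysed here. None of the other marker lists was highest in both CrxRip/Rip samples. At P21 the Müller glia sum (Sox9 and Gfap, 2 of 8 markers) was 12.8 and 16 there against 6.1 to 30 elsewhere. These 2 markers differed: CrxRip/Rip minus the next highest genotype was 0.79 for Sox9, whose mean was highest there, and -1.65 for Gfap. The bipolar sum (3 of 10) was 49.7 and 56.8 against 74.5 to 214.8, the horizontal sum (2 of 6) 86.9 and 103.5 against 63.3 to 236.7, and the vascular sum (4 of 6) 38.8 and 56.8 against 25.7 to 57.9. Lens crystallins (3 of 4) reached 49.1 in CrxRip/Rip replicate 2 and 0.2 in replicate 1. Pigment epithelium markers (5 of 7) summed to 28.7 and 44.5 in CrxRip/Rip and 7.4 to 61 elsewhere. The part of these markers in the levels below was not tested.

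At P21 both CrxRip/Rip samples were above the other 8 samples for all 5 members, which was true of 128 of 1497 genes (8.55%). At P2 it was true of 3 of 4 members and of 40 of 566 genes (7.07%). The rule used these levels, so nothing is read from either count. Ranked by the difference of mean log2(FPKM + 1) between CrxRip/Rip and the next highest genotype, Atp13a5 was first of 1497 at P21 (2.85), Acbd7 rank 3 (2.07), Chrnb4 rank 4 (1.88), Slitrk6 rank 6 (1.68) and Arid3c rank 60 (0.62). At P2, Slitrk6 was rank 2 (1.11), Il11ra1 rank 3 (1.05), Acbd7 rank 4 (0.88) and Arid3c rank 348 of 566 (-0.47). Of the 198 genes in both tables, 6 had both CrxRip/Rip samples above the other 8 at both ages. They were the members Acbd7 and Slitrk6 with Chgb, Trhde, Wfikkn2 and Zbtb40, named after their values were seen.

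**Figure D1:**
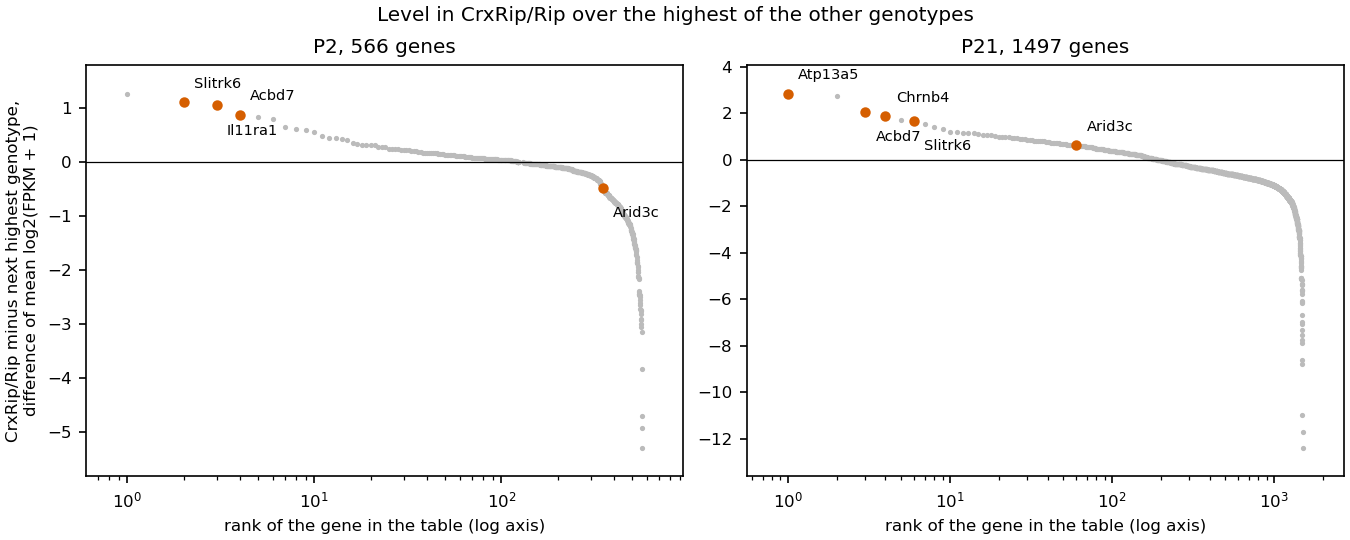
Difference of mean log2(FPKM + 1) between CrxRip/Rip and the highest of the other genotypes (y axis) against the rank of each gene (x axis, log scale), at P2 and P21. Grey points are genes of the table and orange points the members. Atp13a5 leads at P21 with 2.85, and Arid3c at P2 lies below 0 at -0.47.

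**Figure D2:**
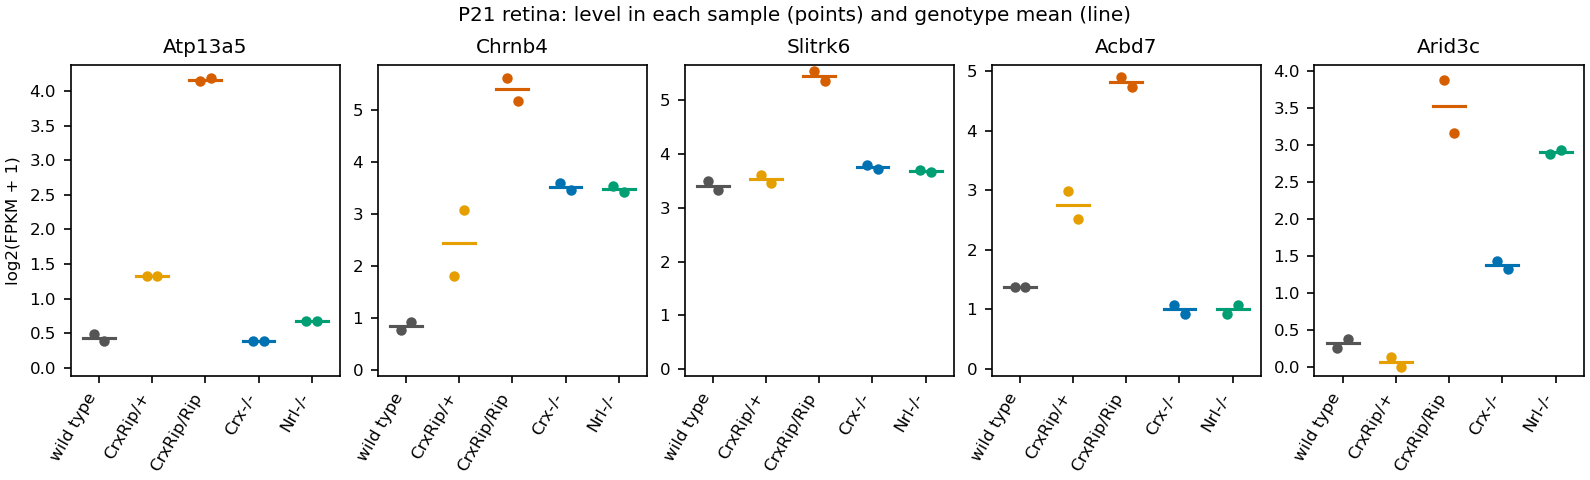
Levels at P21 as log2(FPKM + 1) (y axis) by genotype (x axis) for Atp13a5, Chrnb4, Slitrk6, Acbd7 and Arid3c. Points are samples and lines genotype means. Both CrxRip/Rip samples are highest in every panel, and the next genotype differs between panels (CrxRip/+ for Atp13a5 and Acbd7, Crx-/- for Chrnb4 and Slitrk6, Nrl-/- for Arid3c).

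**Figure D3:**
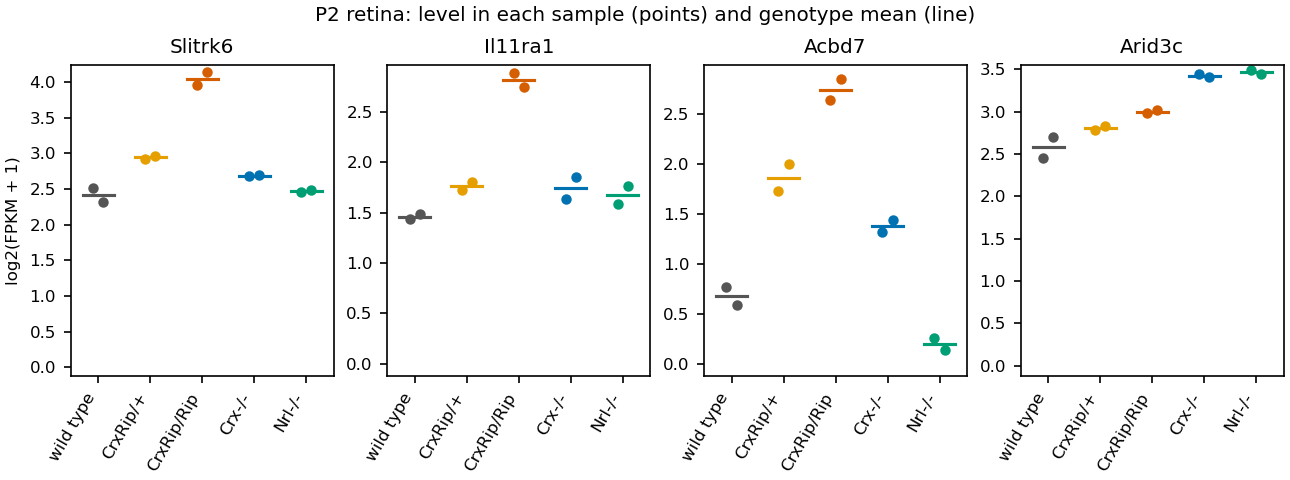
Levels at P2 as log2(FPKM + 1) (y axis) by genotype (x axis) for Slitrk6, Il11ra1, Acbd7 and Arid3c. Points are samples and lines genotype means. CrxRip/Rip is highest in the panels of Slitrk6, Il11ra1 and Acbd7, while Arid3c is highest in Nrl-/- at 10.3 and 9.9 FPKM.

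Chrnb4, the nicotinic beta 4 subunit, was nearly silent in wild type at P21, at 0.7 and 0.9 FPKM. It was at 2.5 and 7.4 FPKM in CrxRip/+, 48.4 and 35.3 in CrxRip/Rip, 11.1 and 10 in Crx-/- and 10.7 and 9.8 in Nrl-/-. No mutant group overlapped wild type, Crx-/- and Nrl-/- overlapped each other, and the CrxRip/+ samples lay far apart for their mean (4.95 ± 3.46, SD, n = 2). The CrxRip/Rip mean was 3.97-fold that of the next group, Crx-/-, and 52.3-fold that of wild type. Outside CrxRip/Rip, Chrnb4 rose by 2.68 ± 0.35 (SE) in Crx-/- (adjusted p = 1.37e-04), by 2.64 ± 0.35 in Nrl-/- (adjusted p = 1.84e-04) and by 1.59 ± 0.35 in CrxRip/+ (adjusted p = 0.00331). Without CrxRip/+ replicate 2 the rise in CrxRip/+ was 0.96 (adjusted p = 0.00292). CrxRip/+ was below Crx-/- by -1.09 ± 0.35 (adjusted p = 0.0289), and this call was lost with only these genotypes in the fit (adjusted p = 0.123) and without CrxRip/+ replicate 1, where the difference was -0.46 (adjusted p = 0.0819), while without CrxRip/+ replicate 2 it was -1.72. The call was lost as well without Crx-/- replicate 1 and without Crx-/- replicate 2. The authors' deposited adjusted p for CrxRip/+ against Crx-/- is 9.48e-14, with a log2 fold change of -1.08.

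Chrnb4 lies on chromosome 9 beside Chrna3 and Chrna5, which encode the alpha 3 and alpha 5 subunits, with starts 18 and 47.3 kb away in RefSeq of GRCm38.p6. Chrna3 was at 2.9 and 2.5 FPKM in wild type, 3.0 and 3.9 in CrxRip/+, 9.9 and 8.5 in CrxRip/Rip, 19.8 and 17.8 in Crx-/- and 3.3 and 3.7 in Nrl-/-. Its order of genotypes was thus another one, with Crx-/- above CrxRip/Rip. Chrna5 was at 1.0 and 1.4 FPKM in wild type, 0.6 and 1.6 in CrxRip/+, 6.3 and 3.1 in CrxRip/Rip, 4.8 and 4.4 in Crx-/- and 0.5 and 0.7 in Nrl-/-. For Chrna5 the CrxRip/Rip and Crx-/- samples overlapped. In Crx-/-, where 39.8% of all genes tested were called higher, all 3 subunits of the cluster rose, Chrna3 by 2.42 ± 0.13 (adjusted p = 1.13e-06) and Chrna5 by 1.35 ± 0.30 (adjusted p = 0.00274). In Nrl-/- only Chrnb4 of the 3 was called higher, with Chrna3 at a change of 0.28 (95% interval -0.02 to 0.59) and Chrna5 at -0.46 (-1.14 to 0.22). Chrna3 and Chrna5 overlap over 1304 bases, and the sources used here do not give whether counting used the strand, so their values may share reads. These 3 were the nicotinic subunits in the P21 table out of a list of 16. None of 4 genes of acetylcholine synthesis, transport and breakdown (Chat, Slc18a3, Slc5a7, Ache) was in either table.

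**Figure D4:**
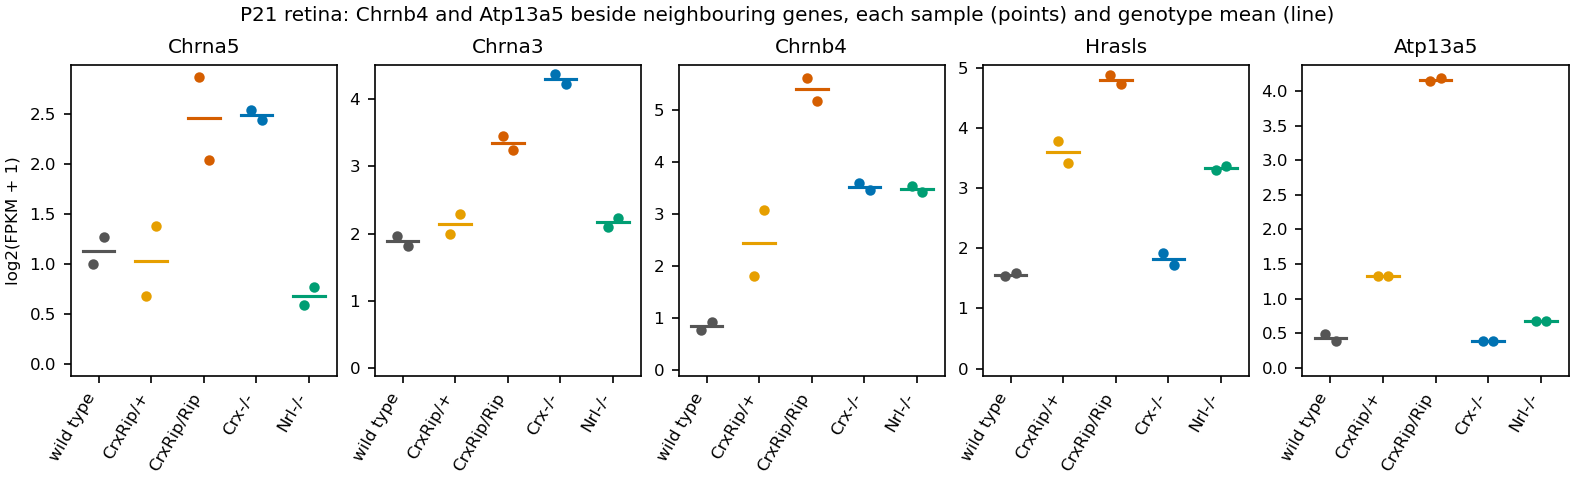
Levels at P21 as log2(FPKM + 1) (y axis) by genotype (x axis) of Chrna5, Chrna3 and Chrnb4, which lie side by side, and of Hrasls and Atp13a5, which do so as well. Points are samples and lines genotype means. Chrna3 peaks in Crx-/- at 19.8 and 17.8 FPKM, whereas Chrnb4, Hrasls and Atp13a5 peak in CrxRip/Rip.

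Il11ra1, the interleukin 11 receptor chain, was measured at P2. It was at 1.7 and 1.8 FPKM in wild type, 2.3 and 2.5 in CrxRip/+, 6.4 and 5.7 in CrxRip/Rip, 2.1 and 2.6 in Crx-/- and 2.0 and 2.4 in Nrl-/-. Both CrxRip/Rip samples stood apart, at 2.52-fold the mean of CrxRip/+, while CrxRip/+, Crx-/- and Nrl-/- overlapped one another just above wild type. None of the comparisons outside CrxRip/Rip was called: the change from wild type was 0.31 in CrxRip/+ (95% interval 0.06 to 0.55, adjusted p = 0.101), 0.28 in Crx-/- (0.03 to 0.53, adjusted p = 0.0768) and 0.22 in Nrl-/- (-0.03 to 0.46, adjusted p = 0.0901). The scaling of the Nrl-/- samples decided that last value. With the scaling that the authors' fold changes imply it was 0.34 (adjusted p = 0.0171), and with median of ratios 0.97 (adjusted p = 8.92e-05), which also gave a call in Crx-/- (0.39, adjusted p = 0.0356). The authors' deposited table has adjusted p = 0.121 for Il11ra1 in Nrl-/- and 0.264 in Crx-/-, and so no call in either. Transcripts of other mouse genes are nearly identical to that of Il11ra1, namely Il11ra2 (99.0% over 1299 bases) and Gm13305 (99.0% over 1654 bases), so its value may hold reads of those copies.

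Interleukin 11 belongs to the interleukin 6 cytokine family, whose receptors signal through JAK kinases and STAT3. Of 21 listed genes of that family's signalling, 3 were measured at P2 and 5 at P21. At P2, Socs3, a feedback inhibitor of the pathway, was called lower in CrxRip/+ (-0.51, adjusted p = 0.0301). Cntfr, the ciliary neurotrophic factor receptor, was called lower in Crx-/- (-0.83, adjusted p = 0.0301) and in Nrl-/- (-1.33, adjusted p = 6.98e-04). The shares of all P2 genes called lower than wild type were 12.7% in CrxRip/+, 20.7% in Crx-/- and 64.7% in Nrl-/-. The share in Nrl-/- depended on the scaling, as given below. Socs3 was at 2.6 and 2.8 FPKM in wild type and 1.9 and 1.2 in CrxRip/Rip, and Cntfr at 23.2 and 23.7 against 19.0 and 11.1, so neither was highest there. At P21, 4 of 5 family genes rose in CrxRip/+, 5 of 5 in Crx-/- and 3 of 5 in Nrl-/-, where Lifr, the leukemia inhibitory factor receptor, fell by 0.73. Of all genes tested at P21, 39.5%, 39.8% and 40.4% were called higher in these comparisons, and nothing particular to the family is read from its counts. The summed FPKM of the Müller glia markers Sox9 and Gfap was 6.1 and 6.6 in wild type, 18.8 and 25.4 in CrxRip/+, 28.3 and 30 in Crx-/- and 10.7 and 12.2 in Nrl-/-, and its part in these changes was not tested. Stat3 rose in all of them, by 1.35 in CrxRip/+, 1.10 in Crx-/- and 1.00 in Nrl-/-, and it was at 19.7 and 19.3 FPKM in CrxRip/Rip, inside the range of the other mutants.

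Slitrk6, the leucine-rich repeat membrane protein, had the highest wild-type level of the members at P21 and kept its CrxRip/Rip excess at both ages. At P2 it was at 4.7 and 4.0 FPKM in wild type, 6.6 and 6.8 in CrxRip/+, 14.5 and 16.7 in CrxRip/Rip, 5.4 and 5.5 in Crx-/- and 4.5 and 4.6 in Nrl-/-. At P21 it was at 10.2 and 9.0 FPKM in wild type, 11.2 and 10 in CrxRip/+, 45.2 and 39.5 in CrxRip/Rip, 12.9 and 12.2 in Crx-/- and 12 and 11.7 in Nrl-/-. The other 4 genotypes ran from 4.0 to 6.8 FPKM at P2 and from 9.0 to 12.9 at P21. At P2 CrxRip/+ lay above the rest of these and Nrl-/- lay inside wild type, while at P21 wild type and CrxRip/+ overlapped. The CrxRip/Rip mean was 3.59-fold that of wild type at P2 and 4.41-fold at P21.

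With 1 mutant copy, Slitrk6 rose at P2 by 0.53 ± 0.10 (adjusted p = 0.00799), a call lost without wild-type replicate 2 (0.43, adjusted p = 0.0634). It was not called at P2 in Crx-/- (0.27, 95% interval 0.04 to 0.50, adjusted p = 0.0687) or in Nrl-/- (0.06, -0.17 to 0.28, adjusted p = 0.607). Median of ratios gave 0.42 in Crx-/- (adjusted p = 0.0365) and 0.95 in Nrl-/- (adjusted p = 1.61e-04). The authors' deposited table has adjusted p = 0.128 and 0.19 for these comparisons, and 5.16e-04 for CrxRip/+ against wild type at P2. At P21 the change in CrxRip/+ was 0.13 (-0.11 to 0.37, adjusted p = 0.279), and it turned to -0.07 with the authors' scaling and to -0.03 with median of ratios. Crx-/- (0.36 ± 0.10, adjusted p = 0.0122) and Nrl-/- (0.28 ± 0.10, adjusted p = 0.0393) were called higher at P21. Neither call held with the authors' scaling, which gave 0.15 (adjusted p = 0.222) and 0.18 (adjusted p = 0.153), and the authors' deposited table has adjusted p = 0.378 and 0.263 for them. The call in Crx-/- was also lost without Crx-/- replicate 1 (adjusted p = 0.0677) or wild-type replicate 2 (0.0891). That in Nrl-/- was lost with median of ratios (0.07, adjusted p = 0.624) and without Nrl-/- replicate 1 (0.129), Nrl-/- replicate 2 (0.0934) or wild-type replicate 2 (0.214). The other 5 SLITRK genes were in neither table.

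Atp13a5, the P5-type ATPase, had the widest gap to the next genotype at P21. It was at 0.4 and 0.3 FPKM in wild type, 1.5 and 1.5 in CrxRip/+, 16.8 and 17.2 in CrxRip/Rip, 0.3 and 0.3 in Crx-/- and 0.6 and 0.6 in Nrl-/-. No mutant other than Crx-/- overlapped wild type, and the CrxRip/Rip mean was 11.3-fold that of CrxRip/+. Atp13a5 rose in CrxRip/+ by 0.89 ± 0.09 over wild type (adjusted p = 4.05e-05) and was higher there than in Crx-/- by 0.94 ± 0.09 (adjusted p = 8.16e-05). With an added 0.1 these values were 1.84 and 2.00. The change in Crx-/- was -0.05 (95% interval -0.26 to 0.15, adjusted p = 0.59). The rise in Nrl-/- (0.25 ± 0.09, adjusted p = 0.0347) rested on values below 1 FPKM. It was lost with the authors' scaling (adjusted p = 0.0567), with median of ratios (0.119), with genes under 2 FPKM left out (0.0575) and without wild-type replicate 2 (0.156), Nrl-/- replicate 1 (0.0951) or Nrl-/- replicate 2 (0.0943). The authors' deposited adjusted p for Atp13a5 in Nrl-/- against wild type is 0.00653, with a log2 fold change of 0.79. The other 4 P5-type ATPase genes were in neither table.

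Hrasls (Plaat1 in RefSeq), a phospholipase and acyltransferase gene, starts 21.4 kb from Atp13a5 on chromosome 16, and the genes overlap over 42 bases. It was at 1.9 and 2.0 FPKM in wild type, 12.8 and 9.7 in CrxRip/+, 28.3 and 25.4 in CrxRip/Rip, 2.8 and 2.3 in Crx-/- and 8.9 and 9.3 in Nrl-/-. Like Atp13a5 it was highest in CrxRip/Rip and next in CrxRip/+. It rose in CrxRip/+ by 2.04 ± 0.14 (adjusted p = 4.11e-06) and in Nrl-/- by 1.78 ± 0.14 (adjusted p = 7.94e-06), and in Crx-/- it was not called (0.26, adjusted p = 0.103).

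Acbd7, the acyl-CoA binding protein, was higher with 1 CrxRip copy than in wild type and higher still with both, at both ages. At P2 it was at 0.7 and 0.5 FPKM in wild type, 2.3 and 3.0 in CrxRip/+, 5.2 and 6.2 in CrxRip/Rip, 1.5 and 1.7 in Crx-/- and 0.2 and 0.1 in Nrl-/-. At P21 it was at 1.6 and 1.6 FPKM in wild type, 6.9 and 4.7 in CrxRip/+, 28.8 and 25.6 in CrxRip/Rip, 1.1 and 0.9 in Crx-/- and 0.9 and 1.1 in Nrl-/-. At P2 none of the 5 groups overlapped. At P21 Crx-/- and Nrl-/- overlapped each other below wild type. The CrxRip/Rip mean was 2.15-fold that of CrxRip/+ at P2 and 4.69-fold at P21.

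Acbd7 rose in CrxRip/+ over wild type by 1.19 ± 0.13 at P2 (adjusted p = 6.59e-04) and by 1.37 ± 0.16 at P21 (adjusted p = 8.78e-05), and both calls held under all 10 alternative settings. With 0.1 in place of the added 1, the P2 change was 1.98 in CrxRip/+, 1.29 in Crx-/- and -1.5 in Nrl-/-. Crx-/- was called higher at P2 (0.70 ± 0.13, adjusted p = 0.00672, but 0.0547 without Crx-/- replicate 2), while at P21 its change was -0.38 (95% interval -0.74 to -0.02, adjusted p = 0.0505). That P21 value lay at the threshold and was called lower under 6 of 10 alternatives, among them the authors' scaling (-0.49, adjusted p = 0.0162) and an added 0.1 (-0.63, adjusted p = 0.0177). Nrl-/- was called lower at P2 (-0.47 ± 0.13, adjusted p = 0.00936), a call lost with median of ratios (-0.25, adjusted p = 0.203), without Nrl-/- replicate 2 (adjusted p = 0.0558) and without wild-type replicate 1 (adjusted p = 0.059). At P21 Nrl-/- was not called (-0.38, adjusted p = 0.0562), and it was under 4 of 10 alternatives, among them the authors' scaling (-0.43, adjusted p = 0.0309). The authors' deposited table has adjusted p = 0.148 for Nrl-/- at P2, where the samples compared were at most 0.7 FPKM. At P21 it has 0.0978 for Crx-/- and 0.286 for Nrl-/-. It has 0.00749 for Crx-/- at P2, and 4.31e-07 and 2.64e-09 for CrxRip/+ at P2 and P21. CrxRip/+ was above Crx-/- by 1.75 ± 0.16 at P21 (adjusted p = 6.88e-05), where the deposited adjusted p is 1.28e-25, against 0.386 at P2. The same comparison at P2 (0.48 ± 0.13, adjusted p = 0.0305) was lost under 6 of 10 alternatives, among them the fit of these genotypes alone (adjusted p = 0.0579), median of ratios (0.1), an added 0.1 (0.0832) and the fits without CrxRip/+ replicate 2 (0.179), Crx-/- replicate 1 (0.125) or Crx-/- replicate 2 (0.087).

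Rpp38, a ribonuclease P subunit gene, overlaps Acbd7 over 173 bases on chromosome 2 and was in the P2 table. It was at 3.5 and 3.8 FPKM in wild type, 4.3 and 4.2 in CrxRip/+, 4.3 and 4.1 in CrxRip/Rip, 2.8 and 3.2 in Crx-/- and 1.7 and 1.4 in Nrl-/-, so CrxRip/+ and CrxRip/Rip overlapped there. Acbd6, the other acyl-CoA binding gene in a table out of 6 listed, was at 7.8 and 8.0 FPKM in wild type and 13.7 and 14.2 in CrxRip/Rip at P21. It was highest in Nrl-/- (46.2 and 45.0) and rose there by 2.39 ± 0.09 (adjusted p = 1.58e-07), where Acbd7 was not called.

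Arid3c, the DNA-binding protein, had a different order at each age. At P2 it was at 4.5 and 5.5 FPKM in wild type, 5.9 and 6.1 in CrxRip/+, 6.9 and 7.1 in CrxRip/Rip, 9.9 and 9.6 in Crx-/- and 10.3 and 9.9 in Nrl-/-. At P21 it was at 0.2 and 0.3 FPKM in wild type, 0.1 and 0.0 in CrxRip/+, 13.7 and 7.9 in CrxRip/Rip, 1.7 and 1.5 in Crx-/- and 6.3 and 6.6 in Nrl-/-. At P2 CrxRip/Rip lay between CrxRip/+ and Crx-/-, whereas at P21 both CrxRip/Rip samples were above all others, at 1.67-fold the mean of Nrl-/-. The CrxRip/Rip samples at P21 lay far apart (10.8 ± 4.1, SD, n = 2).

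Arid3c rose at P2 in Crx-/- by 0.85 ± 0.10 (adjusted p = 6.07e-04) and in Nrl-/- by 0.89 ± 0.10 (adjusted p = 6.29e-05), and it rose again at P21 in Crx-/- by 1.06 ± 0.21 (adjusted p = 0.00146) and in Nrl-/- by 2.58 ± 0.21 (adjusted p = 1.05e-05). These 4 calls held under all 10 alternative settings. At P2 the rise in Nrl-/- was 1.85 with median of ratios, and at P21, with an added 0.1, those in Crx-/- and Nrl-/- were 2.29 and 4.24. In CrxRip/+ it was not called at P2 (0.23, 95% interval 0.00 to 0.45, adjusted p = 0.189) or at P21 (-0.25, -0.73 to 0.22, adjusted p = 0.289), where the sample values were at most 0.3 FPKM. An added 0.1 gave -1.29 for P21 (adjusted p = 0.0119), and the authors' deposited table has a log2 fold change of -3.09 there with adjusted p = 3.51e-04. CrxRip/+ was below Crx-/- by -0.62 ± 0.10 at P2 (adjusted p = 0.00297) and by -1.31 ± 0.21 at P21 (adjusted p = 0.00103), or -3.58 with an added 0.1. Its relative Arid3b, in the P21 table, had yet another order, at 15.2 and 13.4 FPKM in wild type, 36.1 and 31.5 in CrxRip/+, 34.8 and 34.0 in CrxRip/Rip, 10.1 and 10 in Crx-/- and 27.8 and 26.0 in Nrl-/-.

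Arid3c and Il11ra1 lie on chromosome 4 with starts 36.6 kb apart, although their P2 patterns differed, since Il11ra1 was highest in CrxRip/Rip and Arid3c in Nrl-/-. Ccl27a, a chemokine gene that overlaps Il11ra1 over 7 bases, was lowest in CrxRip/Rip (2.5 and 2.8 FPKM) and highest in Crx-/- (7.9 and 6.3). The 3 genes thus had no common order of genotypes.

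Set side by side, the members differed in which genotype other than CrxRip/Rip moved. These comparisons share the wild-type or the CrxRip/+ samples and are not independent of each other. In CrxRip/+ against wild type 2 of 4 members rose at P2 (Acbd7 and Slitrk6) and none fell, where 16.4% of the table was called, 3.71% higher and 12.7% lower. The median change was 0.42 over the members and -0.02 over all genes. At P21 3 of 5 rose (Acbd7, Atp13a5 and Chrnb4), with 74.5% of the table called, 39.5% higher and 35% lower, and the medians were 0.89 and 0.13. In Crx-/- 2 of 4 rose at P2 (Acbd7 and Arid3c), with 29.9% of the table called, 9.19% higher and 20.7% lower, and 3 of 5 at P21 (Arid3c, Chrnb4 and Slitrk6), with 81.3% called, 39.8% higher and 41.5% lower. The medians of members and all genes were 0.49 and -0.14 at P2 and 0.36 and -0.04 at P21. In Nrl-/- 1 of 4 rose and 1 fell at P2 (Arid3c and Acbd7), with 83.6% of the table called, 18.9% higher and 64.7% lower, and 4 of 5 rose at P21 (Arid3c, Atp13a5, Chrnb4 and Slitrk6), with 72.2% called, 40.4% higher and 31.8% lower. The medians were 0.14 and -0.76 at P2 and 0.28 and 0.17 at P21. The P2 tally in Nrl-/- turned with the scaling: median of ratios called Arid3c, Slitrk6 and Il11ra1 higher and not Acbd7, with 188 genes of the table higher and 96 lower. Its factors came from the selected genes alone, and were 0.60 and 0.57 in Nrl-/- against 1.06 to 1.22 elsewhere. The authors' fold changes in Nrl-/- imply a shift of 0.18 on the log2 scale. Their deposited adjusted p there is 1.06e-14 for Arid3c, 0.19 for Slitrk6, 0.121 for Il11ra1 and 0.148 for Acbd7. CrxRip/+ was above Crx-/- for Acbd7 and below it for Arid3c at P2, with 28.6% of the table called, 16.1% higher and 12.5% lower. At P21 it was above for Acbd7 and Atp13a5 and below for Arid3c and Chrnb4, with 52.6% called, 29.9% higher and 22.7% lower. The medians were 0.14 and 0.09 at P2 and -0.23 and 0.06 at P21. Counts over 4 or 5 members chosen for their levels are no result about the members as a set. As single genes, Acbd7 and Atp13a5 were raised with 1 CrxRip copy and not called in Crx-/- at P21, and were above Crx-/- in the direct test. Arid3c was raised in Crx-/- and Nrl-/- at both ages and not called in CrxRip/+.

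**Figure D5:**
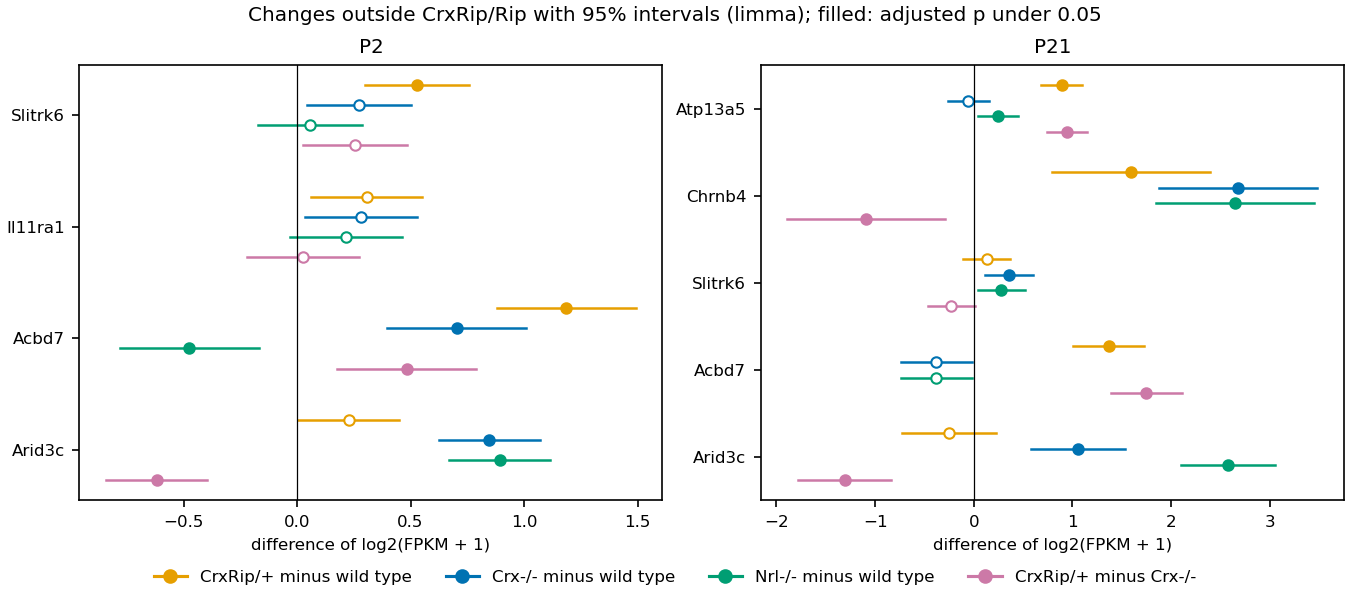
Change of each member in 4 comparisons that leave out CrxRip/Rip, as a difference of log2(FPKM + 1) (x axis) for each gene (y axis) at P2 and P21. Points are estimates, bars 95% intervals and filled points are called by limma. Acbd7 lies right of 0 in CrxRip/+ at both ages (1.19 and 1.37), and Arid3c does so in Nrl-/- (0.89 and 2.58).

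The genes most alike to each member were found by Pearson correlation of log2(FPKM + 1) over the 10 samples of an age, which form 5 genotypes, and the values are a description. The 10 samples include CrxRip/Rip, whose levels chose the members. Nothing is therefore read, at either age, from the likeness of members to each other or to the genes named. At P21 Atp13a5 was most alike to Ngef, a neuronal guanine nucleotide exchange factor (r = 0.99), Mdga1, a membrane-anchored immunoglobulin protein (0.98), and Zbtb40, a zinc finger gene (0.98). Acbd7 was most alike to Ceacam10 (0.97), the member Atp13a5 (0.96) and Arhgap29, a GTPase activator (0.96). Ngef was at 3.1 and 3.0 FPKM in wild type, 4.3 and 4.9 in CrxRip/+ and 10.3 and 9.9 in CrxRip/Rip. It was at 3.1 and 3.0 in Crx-/- and 3.9 and 3.5 in Nrl-/-. Ngef was picked by its correlation with Atp13a5, so a similar order of genotypes follows from the choice. Chrnb4 was most alike to Kcnd3, a voltage-gated potassium channel (0.97), Plcl1, a phospholipase C-like gene (0.97), and Smpdl3a, a phosphodiesterase (0.94). Slitrk6 was most alike to the ubiquitin ligase gene Rnf180 (0.97), the collagen Col4a6 (0.96) and Anks1b (0.95), and Arid3c to Tmem158 (0.96), Ermap (0.96) and Plcl1 (0.87). With an added 0.1 Plcl1 was no longer among the 3 nearest genes of Arid3c (0.79).

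At P2 Slitrk6 and Il11ra1 were each among the 3 nearest of the other (r = 0.96), and both shared Wfikkn2, a secreted protease inhibitor gene (0.98 and 0.94), and B3galt2, a galactosyltransferase gene (0.96 and 0.93). Wfikkn2 was at 1.2 and 1.0 FPKM in wild type, 1.5 and 1.6 in CrxRip/+, 2.9 and 2.8 in CrxRip/Rip, 1.6 and 1.4 in Crx-/- and 1.2 and 1.1 in Nrl-/-. Acbd7 was most alike to Tle6 and Tle2, relatives of the Groucho corepressors (0.98 and 0.95), and to Mfap4, an extracellular matrix gene (0.96), with Tle2 outside the nearest 3 with an added 0.1. Arid3c was most alike to Btf3l4 (0.93), Moxd1 (0.92) and Trp53inp1 (0.90). Its correlation with the other 3 members at P2 lay between -0.23 and 0.04. Those 3 were chosen as highest in CrxRip/Rip, where Arid3c was not highest at P2, so nothing is read from these values.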

How the data were processed

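RNA of 20 retina samples was sequenced from directional TruSeq libraries, per the labels' protocols. The deposited tables give FPKM per sample, and the authors' own log2 fold changes and adjusted p-values per comparison, per the file headers. DESeq is named, with no version, per the submitters' processing notes. The sources used here do not give the aligner, the genome build, the annotation or whether counting used the strand. Values are FPKM without read totals, so depth and counting error are unknown.

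The members and gene lists were chosen with earlier results of these data known. Per age, log2(FPKM + 1) of all genes was fitted with limma 3.58.1 in R 4.3.3 over the 5 genotypes, with Benjamini-Hochberg adjustment over all genes of the table and a threshold of 0.05. The ± values of changes are standard errors, and intervals are the model's. The 4 comparisons per age without CrxRip/Rip were tested. With 2 samples a group, the smallest two-sided p of an exact permutation is 0.33, and no such test is given. The limma script was tested on simulated data. The tables were scaled separately, so ages were not tested against each other. Named beside the members were, per age, the 3 genes most correlated with each one (highest genotype mean of at least 2 FPKM), genes of the tables with starts within 100 kb, and listed family genes. Transcripts matched RefSeq of GRCm38.p6 for 563 of 566 and 1485 of 1497 genes. Near-identical transcripts (at least 95% over 200 bases) were found with blastn 2.17.0. Alternatives were an added 0.1, a minimum mean of 2 FPKM, median-of-ratios scaling, only the genotypes compared, a replicate block, leaving out each sample, and, added after seeing the data, the scaling implied by the authors' fold changes. Replicate numbers were not taken to pair samples. A listed photoreceptor marker, left out of the marker sums, and a gene near a member are not reported here.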

Additional observations from a re-analysis of the deposited data

Results flagged for a closer look

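For a pair of genes the samples of a mutant lay on one side of wild type at P2 and on the other at P21. The change of Acbd7 in Crx-/- was 0.70 at P2 and -0.38 at P21 on the log2(FPKM + 1) scale. The change of Arid3c in CrxRip/+ was 0.23 at P2 and -0.25 at P21. Of these 4 changes, that of Acbd7 at P2 was called by limma. The difference between ages was not tested, because the tables were scaled separately.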

How the results depend on the processing

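Of 360 alternative values of the members' tested changes, 307 kept their direction and side of the threshold, 29 lost a call, 18 gained one and 6 changed sign. The changes of sign were all in values that were not called. Slitrk6 in Nrl-/- at P2 ran from -0.0385 without wild-type replicate 2 to 0.151 without wild-type replicate 1. Il11ra1 in CrxRip/+ against Crx-/- at P2 was -0.0597 with median of ratios and ran from -0.0831 to 0.133 with a sample left out (-0.0177 without CrxRip/+ replicate 2, -0.0831 without Crx-/- replicate 1). Slitrk6 in CrxRip/+ at P21 was -0.0308 with median of ratios and -0.0682 with the authors' scaling, chosen after seeing the data. Genes called at P2 in CrxRip/+ against wild type numbered 93, and 55 to 74 with a sample left out (55 without wild-type replicate 2). In Crx-/- they numbered 169, and 72 to 92 with any of the 4 samples left out, and in CrxRip/+ against Crx-/- 162, and 78 to 93. Median of ratios at P2 changed the calls from 107 higher and 366 lower to 188 and 96 in Nrl-/- (284 in all, from 473), from 52 and 117 to 86 and 57 in Crx-/-, and from 91 and 71 to 41 and 84 in CrxRip/+ against Crx-/-. It moved the median of all genes in Nrl-/- at P2 from -0.76 to -0.04. The cause was not tested. The replicate block gave 101, 203, 481 and 168 calls at P2 (CrxRip/+, Crx-/-, Nrl-/-, CrxRip/+ against Crx-/-) and 1112, 1209, 1068 and 782 at P21. It added calls for Acbd7 in Crx-/- (adjusted p = 0.0480) and Slitrk6 in CrxRip/+ against Crx-/- (0.0489) at P21. Departures of replicate 1 from its genotype mean were compared between genotypes. Their correlation r lay on both sides of 0, between -0.24 and 0.33 at P2 and between -0.30 and 0.24 at P21. The replicate numbers were not taken to pair the samples, though a shared batch was not tested. The CrxRip/Rip difference from wild type moved beyond the sample spread in 10 of 54 alternatives and changed sign in 0.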
